A study of Saccharomyces cerevisiae with 18 samples.

Results

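The G1 and S phase cyclin genes of budding yeast, with the gene of the inhibitor SIC1, are 9 of the 7126 gene IDs in the RPKM tables of this dose series of mating pheromone. They were taken by name: CLN1, CLN2 and CLN3, cyclins of the kinase Cdc28; PCL1, PCL2 and PCL9, cyclins of the kinase Pho85; the S phase cyclins CLB5 and CLB6; and SIC1. The files give the name CLN1 to 2 IDs, YMR199W and YDR357C, of which the R64 annotation calls the second CNL1, so the cyclin was read from YMR199W and each member was matched by ID. RPKM, the unit of all levels here, is the read number of a gene scaled by the length of the gene and by the mapped reads of the library.

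The cells were MATa haploids of strain yAA95, an SEY6210a derivative with loss-of-function mutations in kss1, so that the pheromone signal ran through the kinase Fus3 alone. All libraries share the deletions of BAR1 (the secreted protease that degrades α-pheromone), MFα1, MFα2 and ARG4 and a green fluorescent reporter driven by the FUS1 promoter at ura3, so the controls carry them too. Aliquots of a mid-exponential culture were left without pheromone or given synthetic α-pheromone for 60 min, in 2 experiments with 1 library per dose. Experiment 1 held 0 (mock-treated), 1, 5, 10, 15, 20, 50, 100 and 500 nM, and experiment 2 held 0, 0.05, 0.25, 1, 5, 10, 20, 50 and 500 nM. The libraries of an experiment came from the same culture, and the spread behind each test is that between libraries. The comparison of high with low doses used 7 and 4 libraries, and its spread includes differences between the doses within a group. In the fits of single doses over all 18 libraries, the spread comes from the doses that both experiments used. The libraries held between 4870000 and 16660000 mapped reads, of which the members took between 1 and 3790 reads each.

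Of the mating type markers, STE2, the α-pheromone receptor of MATa cells, was at 452 RPKM or more in every library at 0.25 nM and under, while the a-pheromone receptor gene of MATα cells, STE3, did not exceed 4.20 RPKM in any library. Of the other MATα markers, SAG1, the α-agglutinin gene, lay between 6.42 and 8.01 RPKM at 0.25 nM and under and between 6.03 and 24.0 RPKM at 20 nM and above, and it was called higher at 10 nM (log2 fold change 1.28, adjusted p = 1.1e-04) and 20 nM (1.44, adjusted p = 2.5e-05). MF(ALPHA)1 and MF(ALPHA)2 are deleted in the strain and say nothing of mating type. FUS1, the standard reporter of the pathway, was 14.3 times as high at 20 nM and above as at 0.25 nM and under.

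Progress from G1 into S phase rests on waves of cyclin transcription. Cln3 bound to Cdc28 starts the programme by relieving the repressor Whi5 from the transcription factors SBF (Swi4 and Swi6) and MBF (Mbp1 and Swi6), which then transcribe CLN1, CLN2, PCL1, CLB5 and CLB6. Cln1 and Cln2 drive budding and lead to the destruction of Sic1, which holds the Clb5 and Clb6 kinases inactive until S phase. SIC1 and PCL9 belong to an earlier wave, at the end of mitosis, under Swi5. Pheromone arrests MATa cells in G1 through Far1, an inhibitor of the Cln kinases, and through Ste12, the activator of the mating genes, which binds the pheromone response element.

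All 9 genes have a single exon, none overlaps an annotated gene, and no stretch of 50 bases (the read length) of any of them occurs elsewhere in the R64 genome. In that build CLN1 lies at chrXIII:662644-664284 (+), CLN2 at chrXVI:64977-66614 (-), CLN3 at chrI:65778-67520 (-), PCL1 at chrXIV:87897-88736 (+) and PCL2 at chrIV:234927-235853 (+). PCL9 lies at chrIV:138291-139205 (+), CLB5 at chrXVI:773875-775182 (-), CLB6 at chrVII:705359-706501 (-) and SIC1 at chrXII:286820-287674 (+).

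The 800 bases before each start codon were searched on both strands for 4 motifs, with the SBF element written as CACGAAA or CGCGAAA, the MBF element as ACGCGT, the pheromone response element as TGAAACA and the Swi5 element as ACCAGC. Of 5997 windows of that length in the genome, 17.1% held an SBF element, 7.62% an MBF element, 18.8% a pheromone response element and 23.6% a Swi5 element. CLN2 and PCL1 held 3 SBF elements each, as did 0.283% of all windows or a higher number. CLB6 held 2 MBF elements (at least 2 in 0.750% of windows), and CLN1 held 1 MBF and 1 SBF element. PCL9 held 2 Swi5 elements (at least 2 in 3.08% of windows) and none of the other 3 motifs. PCL2 held 2 SBF elements, 2 Swi5 elements and 1 pheromone response element. CLB5 held 1 pheromone response element and 1 Swi5 element, and SIC1 held 1 SBF element, whose 7 letters end at the base before the start codon. The CLN2 and CLB6 windows also held 1 pheromone response element each, and the CLN3 window held none of the 4. No matches of different motifs overlapped in these windows. A match describes the letters and was not tested as a binding site.

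The stretches below carry the elements of the 5 genes that stand for the different dose responses described next: CLN2, PCL1 and CLB6 fell at high doses, PCL2 rose, and PCL9 fell at a low dose. Each runs 5′ to 3′ along the strand of the gene, from the R64 genome, with the elements on either strand in capitals. They cover chrXVI:67041-67230 (-) for CLN2, chrXIV:87560-87749 (+) for PCL1, chrVII:706725-706914 (-) for CLB6, chrIV:234397-234586 (+) for PCL2 and chrIV:137956-138145 (+) for PCL9. The capitals mark SBF elements in CLN2 and PCL1, MBF elements in CLB6, the Swi5 elements in PCL9, and in PCL2 the pheromone response element, the SBF elements and the Swi5 elements.
CLN2: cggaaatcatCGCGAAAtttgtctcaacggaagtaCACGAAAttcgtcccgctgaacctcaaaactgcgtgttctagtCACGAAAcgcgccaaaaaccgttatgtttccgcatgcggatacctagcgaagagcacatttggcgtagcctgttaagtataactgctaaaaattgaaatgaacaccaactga
PCL1: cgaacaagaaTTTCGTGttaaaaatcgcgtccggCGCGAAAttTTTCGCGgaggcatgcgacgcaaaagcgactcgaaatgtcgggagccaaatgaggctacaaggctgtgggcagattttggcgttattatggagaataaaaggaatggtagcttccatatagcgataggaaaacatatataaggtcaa
CLB6: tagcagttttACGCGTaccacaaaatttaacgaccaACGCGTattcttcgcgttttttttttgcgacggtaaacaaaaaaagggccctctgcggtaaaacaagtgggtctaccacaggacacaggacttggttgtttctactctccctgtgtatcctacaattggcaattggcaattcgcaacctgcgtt
PCL2: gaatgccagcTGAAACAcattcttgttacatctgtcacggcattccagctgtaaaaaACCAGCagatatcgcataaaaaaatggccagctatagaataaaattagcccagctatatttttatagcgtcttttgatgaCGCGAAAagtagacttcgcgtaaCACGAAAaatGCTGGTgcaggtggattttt
PCL9: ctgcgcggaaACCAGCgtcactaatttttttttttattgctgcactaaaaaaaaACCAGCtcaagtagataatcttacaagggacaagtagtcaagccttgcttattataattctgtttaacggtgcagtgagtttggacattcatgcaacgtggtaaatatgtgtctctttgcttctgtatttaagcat

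The members parted into 4 patterns over dose. CLN1, PCL1, CLB5 and CLB6 held near their mock-treated level up to 5 nM and were more than 2-fold lower from 20 nM on. Of these, PCL1 and CLB6 fell further from 20 to 50 nM. CLN2 was more than 2-fold lower only from 50 nM on, PCL9 and SIC1 had fallen already at 5 nM, and PCL2 and CLN3 rose. The main comparison set the 7 libraries at 20 nM and above against the 4 at 0.25 nM and under, in limma on log2(RPKM + 1), blocked by experiment, with Benjamini-Hochberg adjustment over the 6002 genes with a mean of at least 1 RPKM. Fell and rose are used for an adjusted p under 0.05, and called for such a p together with a change of at least 2-fold. By this rule 5 of the 9 members were called lower, CLN1, CLN2, PCL1, CLB5 and CLB6, against 4.40% of all genes tested, and PCL2 was called higher, against 2.28%. By the adjusted p alone 7 members fell, against 25.9% of genes, and 2 rose, against 9.10%. The median log2 fold change of the members was -1.29 and that of all genes tested -0.10. These libraries average over all cells of a culture, so fewer cells that hold a transcript and less of it per cell cannot be told apart.

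**Figure D1:**
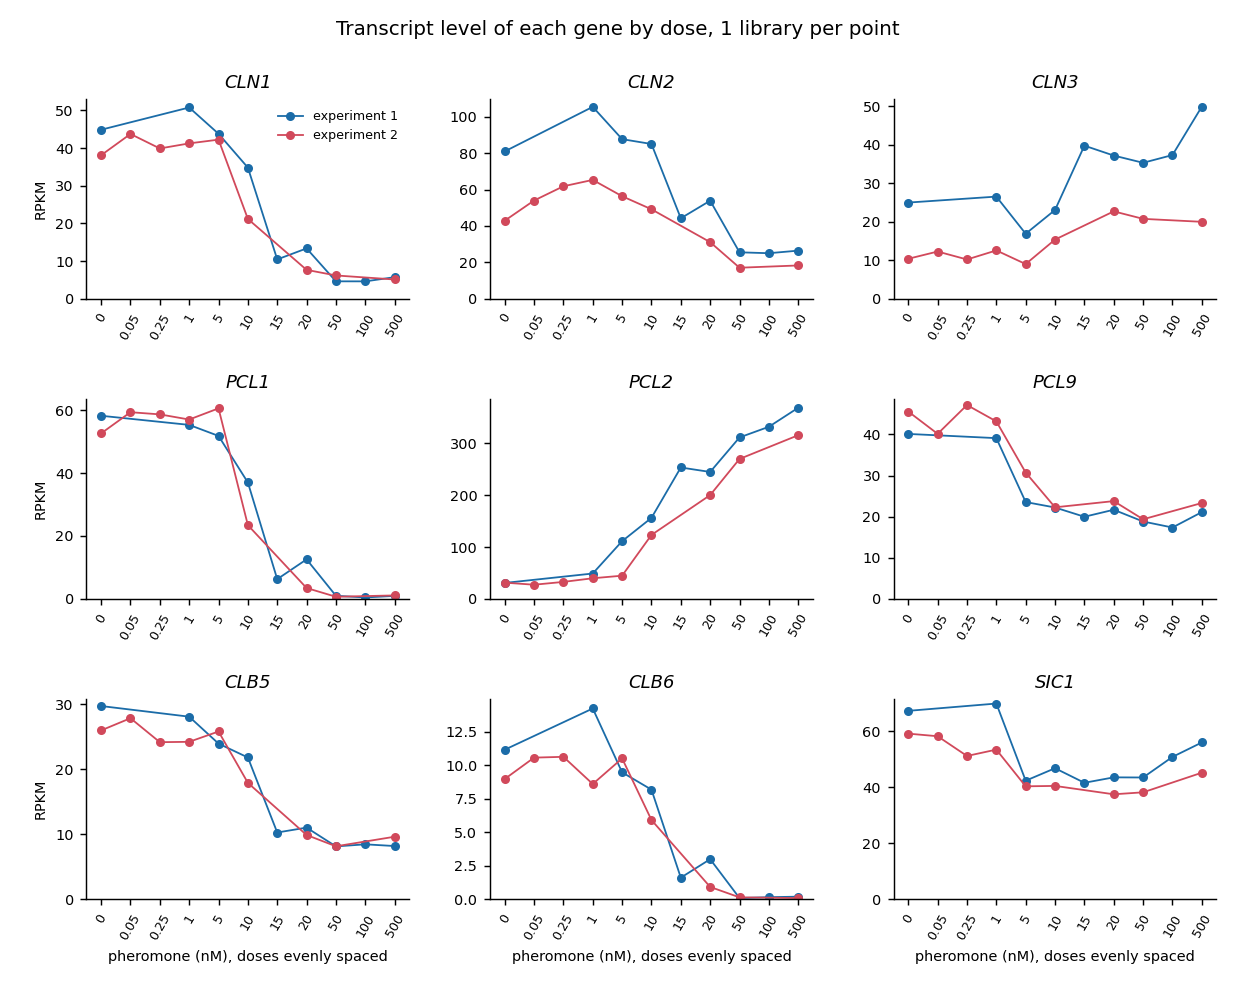
Level of each of the 9 genes in RPKM against the dose of α-pheromone in nM, with the 11 doses evenly spaced; each point is 1 library, and the lines join the libraries of experiment 1 (blue) and experiment 2 (red). PCL1 fell from 58.2 and 52.6 RPKM without pheromone to 1.13 RPKM or less at 50 nM and above, while PCL2 rose from 30.9 and 31.5 RPKM to 368 and 315 RPKM at 500 nM.

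CLN1 encodes a late G1 cyclin. In experiment 1 it stood at 44.9 RPKM in the mock-treated library and at 50.8, 43.8, 34.8, 10.5, 13.4, 4.65, 4.64 and 5.76 RPKM at 1, 5, 10, 15, 20, 50, 100 and 500 nM. In experiment 2 its level was 38.1 RPKM in the mock-treated library and 43.7, 39.9, 41.2, 42.2, 21.2, 7.69, 6.21 and 5.14 RPKM at 0.05, 0.25, 1, 5, 10, 20, 50 and 500 nM. Every library at 20 nM and above lay under every library at 0.25 nM and under. At 10 nM CLN1 was at 77.6% of the mock-treated level in experiment 1 and 55.6% in experiment 2. This difference did not pass the test (log2 fold change -0.59, adjusted p = 0.0950 in limma). CLN1 fell by 2.55 on the log2 scale (SE 0.24, adjusted p = 2.1e-05), from 41.7 ± 3.18 RPKM (SD, n = 4) to 6.78 ± 3.10 RPKM (SD, n = 7).

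CLN2, which also encodes a late G1 cyclin, gave 80.9 RPKM in the mock-treated library of experiment 1 and, in the same order of doses, 105, 87.6, 85.0, 44.2, 53.9, 25.5, 25.0 and 26.5 RPKM. In experiment 2 it gave 42.9 RPKM without pheromone and then 54.0, 61.8, 65.3, 56.3, 49.2, 31.1, 17.1 and 18.3 RPKM. Its level was between 1.44 and 1.89 times as high in experiment 1 as in experiment 2 at each of the 7 doses they share, so the low and high groups overlapped when pooled but not within an experiment. CLN2 was the least complete fall among the late G1 cyclins: 32.7% and 42.8% of the mock-treated level were left at 500 nM in experiments 1 and 2. The log2 fold change was -1.29 (SE 0.24, adjusted p = 0.00205). CLN2 stood above the mock-treated library at 1 nM in both experiments, at 130% and 152% of it, a difference that did not pass the test (log2 fold change 0.49, adjusted p = 0.0589).

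PCL1, the Pho85 cyclin of late G1, showed the largest fitted log2 change of the 9 genes, although per mapped read CLB6 was left with a smaller share at 50 nM and above, with overlapping intervals. In experiment 1 it gave 58.2 RPKM without pheromone and then 55.3, 51.8, 37.0, 6.29, 12.6, 1.01, 0.483 and 0.979 RPKM. In experiment 2 it gave 52.6 RPKM and then 59.3, 58.6, 57.0, 60.5, 23.4, 3.48, 0.704 and 1.13 RPKM. The groups did not overlap, and PCL1 fell by 4.44 on the log2 scale (SE 0.56, adjusted p = 1.5e-04). The 5 libraries at 50 nM and above held between 4 and 11 reads each, and their 38 reads together were 1.47% of the level of the 4 low-dose libraries per mapped read (95% exact interval 1.04 to 2.02%, counting error only).

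The S phase cyclin genes CLB5 and CLB6 encode a pair of closely related proteins that start DNA replication, but their transcripts left different amounts behind. CLB5 gave 29.7 RPKM in the mock-treated library of experiment 1 and then 28.1, 23.9, 21.8, 10.3, 11, 8.11, 8.43 and 8.17 RPKM. In experiment 2 CLB5 gave 26.0 RPKM and then 27.9, 24.2, 24.2, 25.8, 17.9, 9.87, 8.13 and 9.61 RPKM. It thus settled at 27.5% and 37.0% of the mock-treated level at 500 nM, with no overlap of the groups, and fell by 1.49 on the log2 scale (SE 0.10, adjusted p = 1.9e-06). CLB6 gave 11.2 RPKM in the mock-treated library of experiment 1 and then 14.2, 9.47, 8.18, 1.60, 2.98, 0.0743, 0.142 and 0.180 RPKM. In experiment 2 CLB6 gave 8.97 RPKM and then 10.6, 10.6, 8.60, 10.5, 5.91, 0.907, 0.129 and 0.0753 RPKM. At 50 nM and above these values stand for 1 or 2 reads a library, 7 reads in all, against 485 reads in the 4 low-dose libraries. That is 1.10% of the low-dose level per mapped read (95% exact interval 0.441 to 2.29%, counting error only). The fitted log2 fold change of CLB6, -3.03 (SE 0.36, adjusted p = 1.1e-04), is smaller than these reads give because 1 was added to each RPKM, and it is no bound: with 0.1 added the value was -4.82, and with 5 added -1.49. The change of CLB5 was smaller than that of CLB6 by 1.54 on the log2 scale (exact permutation test over libraries, p = 0.01, adjusted p = 0.0112 over the 36 pairs of members).

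PCL2 encodes a Pho85 cyclin related to Pcl1, and its transcript moved the other way. In experiment 1 it gave 30.9 RPKM without pheromone and then 49.0, 111, 156, 253, 245, 311, 332 and 368 RPKM. In experiment 2 it gave 31.5 RPKM and then 27.4, 32.9, 39.9, 44.9, 123, 200, 270 and 315 RPKM. The groups did not overlap, and PCL2 rose by 3.12 on the log2 scale (SE 0.14, adjusted p = 1.3e-07), from 30.7 ± 2.31 RPKM (SD, n = 4) to 292 ± 57.0 RPKM (SD, n = 7). It had the highest RPKM of the 9 genes from 5 nM on in experiment 1 and from 10 nM on in experiment 2. Experiment 1 ran ahead at 5 nM, where its level was 2.48 times that of experiment 2, whereas at the other 6 shared doses the ratio lay between 0.982 and 1.27.

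CLN3, the most upstream G1 cyclin, also rose but by less than 2-fold. In experiment 1 it gave 25.0 RPKM without pheromone and then 26.5, 16.9, 23.1, 39.7, 37.2, 35.3, 37.3 and 49.9 RPKM. In experiment 2 it gave 10.4 RPKM and then 12.3, 10.2, 12.6, 9.03, 15.4, 22.7, 20.8 and 20.0 RPKM. The level of CLN3 was from 1.5 to 2.49 times as high in experiment 1 at the shared doses, so the pooled groups overlapped while the groups within each experiment did not. The lowest level of each experiment was at 5 nM, at 67.6% and 86.8% of the mock-treated library, a difference that did not pass the test (log2 fold change -0.36, adjusted p = 0.313). CLN3 rose by 0.80 on the log2 scale (SE 0.11, adjusted p = 2.3e-04), which is 1.75-fold. Unblocked, the log2 fold change of CLN3 in limma was 1.11 (adjusted p = 0.0111), past 2-fold. The experiments make up unequal shares of the low and high groups, so their difference in level enters this value. In experiments 1 and 2 taken alone the log2 fold change was 0.64 and 0.89.

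PCL9 encodes the Pho85 cyclin of the M to G1 boundary. It gave 40.1 RPKM in the mock-treated library of experiment 1 and then 39.1, 23.6, 22.2, 20.0, 21.7, 18.8, 17.4 and 21.1 RPKM. In experiment 2 it gave 45.6 RPKM and then 40.2, 47.2, 43.2, 30.7, 22.3, 23.8, 19.4 and 23.3 RPKM. Nearly the whole fall was over by 10 nM. At that dose PCL9 stood at -0.91 on the log2 scale against 0 nM in limma (adjusted p = 1.2e-04). PCL1 stood close to it at -0.89, CLN1 at -0.59, and CLB5 and CLB6 at -0.47 each, of which only CLB5 passed (adjusted p = 0.0263). The change of CLN2 did not pass the test either (log2 fold change 0.13, adjusted p = 0.356). The groups did not overlap, and PCL9 fell by 0.98 on the log2 scale (SE 0.09, adjusted p = 1.3e-05). This is a 1.97-fold change, just outside the 2-fold limit, and over the 24 alternatives tried the log2 fold change of PCL9 ran from -1.03 to -0.86, across that limit.

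SIC1, the inhibitor of the Clb kinases, followed PCL9 at low doses. In experiment 1 it gave 67.3 RPKM without pheromone and then 70.0, 42.4, 46.8, 41.6, 43.5, 43.5, 50.9 and 56.0 RPKM. In experiment 2 it gave 59.2 RPKM and then 58.3, 51.2, 53.5, 40.3, 40.5, 37.5, 38.2 and 45.2 RPKM. SIC1 was at 62.9% and 68.2% of the mock-treated level at 5 nM and had come back to 83.2% and 76.4% at 500 nM, so that the pooled groups overlapped while those within an experiment did not. It fell by 0.47 on the log2 scale (SE 0.09, adjusted p = 0.00251).

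**Figure D2:**
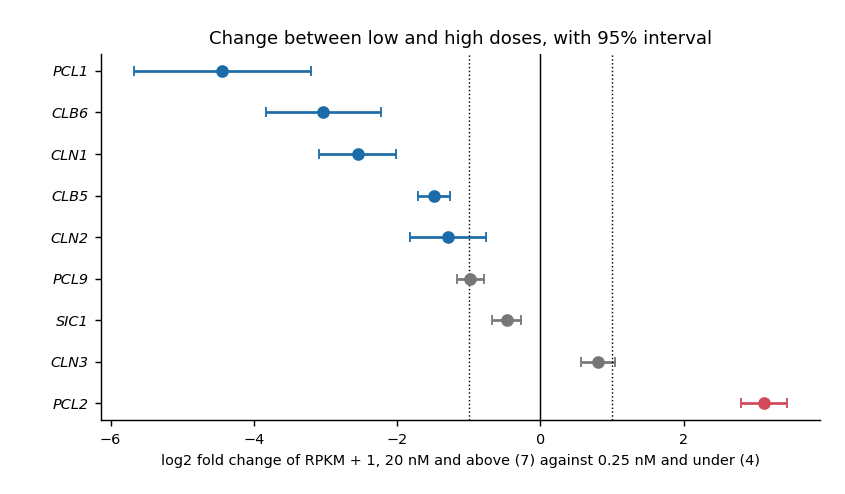
Log2 fold change of RPKM + 1 of each gene between the 7 libraries at 20 nM and above and the 4 at 0.25 nM and under; points are limma estimates, bars their 95% intervals, dotted lines mark 2-fold, and blue, red and grey stand for called lower, called higher and not called. On this scale PCL1 has the largest fall (-4.44) and PCL2 the only rise past 2-fold (3.12), and the intervals of CLN2, PCL9 and CLN3 span a 2-fold line.

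The size of the change was compared between members within the same libraries, by an exact permutation test of dose labels within each experiment (two-sided, 100 regroupings, smallest possible p 0.01) on each of the 36 pairs. The pairs that did not pass were CLN2 with PCL9 (difference in log2 change -0.31, adjusted p = 0.185), CLN2 with CLB5 (0.20, adjusted p = 0.390) and CLN2 with SIC1 (-0.82, adjusted p = 0.0635), while 33 of 36 passed. Among those that passed was PCL1 with CLB6 (-1.41), a value that the 1 added to each RPKM affects. Per mapped read CLB6 was left with 1.10% and PCL1 with 1.47% at 50 nM and above, with overlapping intervals. CLN1 fell by more than CLN2, by 1.26 on the log2 scale (adjusted p = 0.0112), and by less than PCL1, by 1.89 (adjusted p = 0.0112). CLN3, PCL2 and PCL9 each differed in size of change from CLN1 and PCL1 at the smallest p the design allows. CLN1 differed from CLN2 and from PCL1 at that same p. The test thus compares sizes of change and cannot sort the genes into those that follow CLN1 and those that do not. The change of PCL1 minus that of PCL2 was -7.56 on the log2 scale, and that of CLN1 minus that of PCL9 was -1.57. Without the mock-treated library of experiment 1 only 20 regroupings are left and no pair can pass.

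The dose at which each gene moved was read from 4 measures. By the fit of each dose against 0 nM over all 18 libraries, no member was called at 1 nM in either direction, with 0.0334% of 5995 genes called lower and 0.267% higher. At 5 nM no member was called lower (0.183% of genes), and PCL2 was called higher (0.601%) with a log2 fold change of 1.16 (adjusted p = 0.0309). That call of PCL2 was lost when any of 11 of the 18 libraries was left out, and without the experiment as a block. By the adjusted p alone PCL9 and SIC1 had fallen at 5 nM, against 1.67% of genes that fell and 1.37% that rose. PCL9 fell by 0.65 on the log2 scale (adjusted p = 0.00333) and SIC1 by 0.60 (adjusted p = 0.00242), and both kept an adjusted p under 0.05 without each of the 18 libraries in turn. Without the experiment as a block PCL9 passed (adjusted p = 0.0460) and SIC1 did not (adjusted p = 0.146). At 10 nM PCL2 was again the only member called, higher, with 1.10% of genes called lower and 1.55% higher. By the adjusted p alone PCL9 (-0.91, adjusted p = 1.2e-04), SIC1 (-0.53, adjusted p = 0.00131) and CLB5 (-0.47, adjusted p = 0.0263) had fallen there. CLN1 (-0.59, adjusted p = 0.0950), PCL1 (-0.89, adjusted p = 0.123) and CLB6 (-0.47, adjusted p = 0.278) did not pass.

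At 20 nM CLN1, PCL1, CLB5 and CLB6 were called lower, 4 of 9 members against 2.80% of genes, and PCL2 higher against 1.77%. CLN2 fell there by 0.51 (adjusted p = 0.00260), which is under 2-fold. At 50 nM CLN2 and PCL9 joined, which made 6 members called lower against 5.72% of genes, with PCL2 higher against 2.20%. At 500 nM 5 were called lower against 7.11% and PCL2 higher against 5.42%, since PCL9 stood at -0.92 on the log2 scale (adjusted p = 1.3e-05). CLN3 was called at none of these doses, and its log2 fold change lay between 0.71 and 0.92 at 20, 50 and 500 nM.

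The steps between neighbouring shared doses place the falls. From 0 to 1 nM no member passed an adjusted p of 0.05, nor did any from 5 to 10 nM, with 0.0834% and 0.867% of genes lower and 0.417% and 0.867% higher over those steps. From 1 to 5 nM only PCL9 (-0.59, adjusted p = 0.0190) and SIC1 (-0.55, adjusted p = 0.0127) passed among the members, against 0.500% of genes that fell. Neither passed over that step without the 1 nM library of either experiment, without the 5 nM library of experiment 1 or without the block. From 10 to 20 nM CLN1 (-1.33), CLN2 (-0.65), PCL1 (-1.97), CLB5 (-0.86) and CLB6 (-1.53) passed, with adjusted p between 0.0114 and 0.0240, against 2.52% of genes that fell. This step gave no member past the threshold without the 10 nM library of experiment 1, without the 20 nM library of experiment 2 or without the block. From 20 to 50 nM CLN2 fell once more (-0.94, adjusted p = 6.1e-04), with PCL1 (-2.07, adjusted p = 0.0113) and CLB6 (-1.32, adjusted p = 0.0242), against 4.52% of genes, and without the 50 nM library of experiment 1 there was 1 member left. From 50 to 500 nM none fell and SIC1 rose (0.30, adjusted p = 0.0118), a step over which 12.8% of all genes fell and 19.5% rose, and SIC1 did not pass it under quantile normalization, without the block or without the 50 nM or the 500 nM library of experiment 1.

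**Figure D3:**
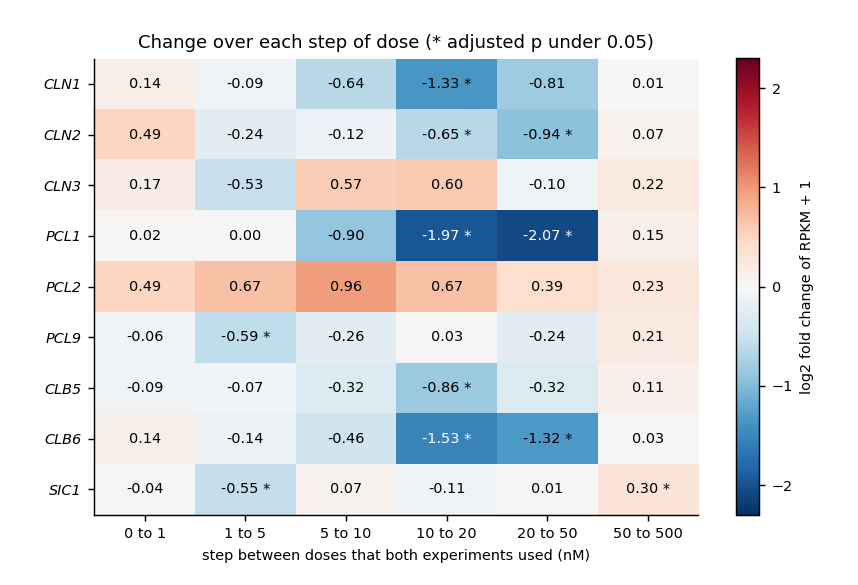
Log2 fold change of RPKM + 1 of each gene over each step between the doses both experiments used, from 0 to 1 nM on the left to 50 to 500 nM on the right; colour and number give the change, and a star marks an adjusted p under 0.05. PCL9 and SIC1 have a star at 1 to 5 nM (-0.59 and -0.55), CLN1, CLN2, PCL1, CLB5 and CLB6 at 10 to 20 nM, CLN2, PCL1 and CLB6 again at 20 to 50 nM, and SIC1 for a rise at 50 to 500 nM (0.30).

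The early fall of PCL9 and SIC1 was set against that of the 5 genes called lower, from 1 nM and under to 5 nM, a test chosen after these values were seen. PCL9 changed by -0.49 to -0.59 and SIC1 by -0.44 to -0.55 on the log2 scale relative to CLN1, CLN2, PCL1, CLB5 and CLB6. The exact permutation test has only 15 regroupings here and cannot give a p under 0.0667. In this permutation test 8 of the 10 pairs reached that smallest p (adjusted p = 0.0833), and the pairs with CLN2 gave p = 0.133.

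Against the 2-fold limit used in the study, on the ratio of RPKM + 1 to the mock-treated library of the same experiment, CLN1, CLB5 and CLB6 were below it from 15 nM on in experiment 1 and from 20 nM on in experiment 2. PCL1 was below it from 15 nM on in experiment 1 and already from 10 nM on in experiment 2. CLN2 was below it only from 50 nM on in both, and PCL2 was above it from 5 nM on in experiment 1 and from 10 nM on in experiment 2. CLN3, PCL9 and SIC1 met no such limit at every dose above a given one in either experiment.

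Sigmoidal fits to the level relative to the low-dose libraries gave the midpoint dose, at which a gene had made the middle of its own fall or rise. The midpoint was 10.1 nM for PCL1, 10.3 nM for CLB5, 10.8 nM for CLN1 and 11.4 nM for CLB6, and 17.0 nM for CLN2. These values depend on the form of the fit: on the log2 scale the midpoint of PCL1 was 16.2 nM, and with the plateau held at 0 that of CLB5 was 21.2 nM and that of CLN2 35.3 nM. In the experiments taken alone (1, then 2) it was 10.7 and 9.38 nM for PCL1, 9.66 and 10.2 nM for CLB5, 11.7 and 9.63 nM for CLN1, 11.6 and 10.7 nM for CLB6, and 16.5 and 17.7 nM for CLN2. The midpoint of CLN2 was thus the highest of the 5 in each experiment, while the other 4 lay between 9.38 and 11.7 nM and their order differed between the experiments. The fitted plateau left 2.12% of the low-dose level of CLB6, 3.07% of PCL1, 13.8% of CLN1, 29.9% of CLB5 and 32.6% of CLN2.

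The same fit, applied to the other members after their values were seen, put the midpoint of PCL9 at 3.45 nM (2.89 and 4.63 nM by experiment) with a plateau of 49.0%. For SIC1 it was 1.83 nM (2.16 and 1.63 nM) with a plateau of 70.1%. No library was taken between 1 and 5 nM, so these midpoints say only that much of the fall lay between those doses, and the steepness of the SIC1 fit stood at its upper limit of 6. PCL2 rose with a midpoint of 13.3 nM (11.8 and 16.1 nM) on the RPKM scale and of 6.83 nM on the log2 scale. For CLN3 the fit also stood at its limit of steepness and is not given.

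**Figure D4:**
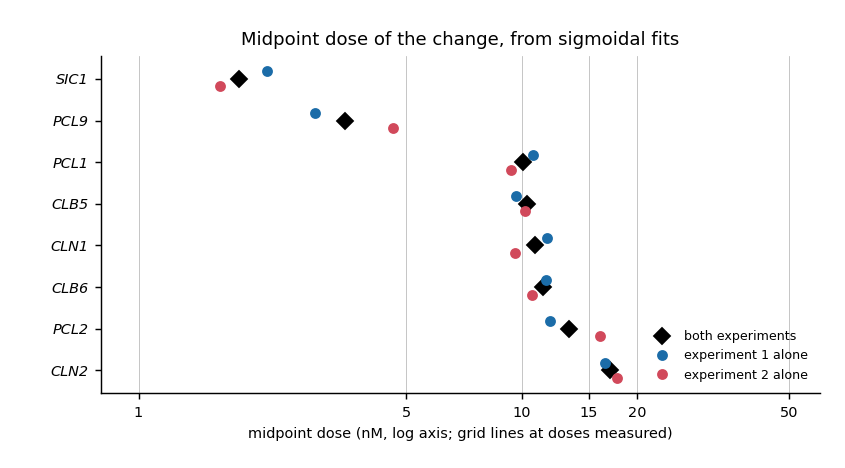
Midpoint dose of each gene in nM on a log axis from sigmoidal fits, for both experiments together (black diamonds) and for experiment 1 (blue) and experiment 2 (red) alone; CLN3 is left out. SIC1 and PCL9 lie between 1 and 5 nM, PCL1, CLB5, CLN1 and CLB6 between 9.38 and 11.7 nM, and CLN2 at 17.0 nM.

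In experiment 1 the 15 nM library was lower than the 20 nM library for CLN1, CLN2, PCL1, CLB5 and CLB6, most of all for PCL1 (6.29 against 12.6 RPKM). The 20 nM library of that experiment was the highest of the 7 high-dose libraries for these 5 genes. Without it the log2 fold change was -2.65 for CLN1, -1.37 for CLN2, -4.69 for PCL1, -1.52 for CLB5 and -3.18 for CLB6, with every call as before. No difference between the experiments in the change was detected for any member: the interaction of dose with experiment passed for 0 of 6002 genes in limma (0.00%), with 72 genes at an unadjusted p under 0.05, and the members had unadjusted p between 0.293 and 0.994.

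Genes whose profile over the 18 libraries was most like that of a member were ranked by Pearson's r of log2(RPKM + 1), centred within each experiment, over 5995 genes. The libraries share doses and cultures, so r is a description. The nearest to CLN1 were GAS1, MCD1, CBF2, GIN4 and SWE1, all at 0.99 or more, and MCD1 encodes a cohesin subunit and SWE1 the kinase that restrains Cdc28. PCL1 was nearest to MNN1, CLB6, MCD1, HTB2 (a histone gene) and RTT107, and CLB6 to HTB2, PCL1, YOX1, RTT107 and CLN1. CLB5 was nearest to YHP1, HTB1, SPT21, RTT109 and SNL1, at 0.99 each. For CLN2 they were POL2, SWI4 (the DNA-binding subunit of SBF), CSI2, RNQ1 and RNR1, at 0.98 to 0.99.

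PCL2 was nearest to CIK1, PRM4, KAR5, ASG7 and FUS2, at 0.99 or more, of which CIK1 and KAR5 act in nuclear fusion and FUS2 in cell fusion during mating. PCL9 was nearest to CHS2, AIM44, HOF1, MMR1 and NBA1 (0.96 to 0.97), and CHS2 and HOF1 serve septum formation and cytokinesis. SIC1 was nearest to SEC9, TPO4, LAF1, CYK3 and RME1 (0.91 to 0.94). CLN3 had the loosest match, with CYC3 (0.93), MSN4, SGN1, MPT5 and SPO12, and CYC3 is its neighbour, 1195 bases away on the same strand. Among the members themselves r was 0.93 to 0.99 between any pair of CLN1, CLN2, PCL1, CLB5 and CLB6, and 0.83 between PCL9 and SIC1. PCL9 gave 0.83 with CLB5 too, and between 0.73 (CLN2) and 0.81 (CLN1) with CLN1, CLN2, PCL1 and CLB6. With the same genes SIC1 gave between 0.39 (CLN2) and 0.58 (CLB5), and 0.51 with CLN1. CLN3 and PCL2 gave -0.88 and -0.92 with CLN1.

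The other genes of this machinery were taken from fixed lists in the comparison of high with low doses. In that comparison 4.40% of all genes tested were called lower and 2.28% higher. Of 9 genes for the kinases Cdc28 and Pho85 and their partners, 1 was called higher and none lower: FAR1, which rose by 1.65 on the log2 scale (adjusted p = 9.2e-08). None of the other 7 Pho85 cyclin genes was called, with a median log2 fold change of -0.04 against -0.10 over all genes. Of 10 regulators of SBF and MBF, NRM1, a co-repressor of MBF, was called lower (-2.60, adjusted p = 7.1e-05). Of the 12 other genes of the G1 to S wave, 11 were called lower, led by MCD1 (-3.77), TOS4 (-3.14), RNR1 (-3.08), which makes the large subunit of ribonucleotide reductase, and MNN1 (-2.46). The exception, named after its value was seen, was GIC2, an effector of Cdc42, which rose by 1.21 (adjusted p = 1.8e-07).

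Of the 4 mitotic cyclin genes CLB1 was called lower (-3.01, adjusted p = 4.5e-07). CLB2 (-0.90), CLB3 (-0.87) and CLB4 (-0.66) also fell, by less than 2-fold, with adjusted p between 9.4e-06 and 0.00165 in limma. SWI5, the activator of the wave that holds PCL9 and SIC1, was called lower (-2.51, adjusted p = 2.2e-07). The early cell cycle box is the promoter element known for CLN3. Of 8 other genes with this element, CDC6 (-1.52) and MCM7 (-1.08) were called lower, with a median of -0.46.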

How the data were processed

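RNA of 18 libraries of MATa yeast was depleted of ribosomal RNA, copied from random hexamers into directional libraries and read as 50-base single ends. The authors aligned the reads and deposited RPKM values per gene, 1 table per experiment. The submitters' processing notes name Bowtie 0.12.2 and the sacCer3 build, whose sequence is that of the R64 genome used here, while the study's methods name Bowtie 2 and a genome from Ensembl. The 7336 rows hold 7126 gene IDs (151 are listed more than once with identical values), and 6048 matched the R64 annotation. RPKM times gene length and library total gave whole reads within 0.05 for 99.7% to 99.9% of the low values tested, with library totals of 4870000 to 16660000. The label of the 0.05 library writes its unit as nm, which was read as nM.

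Values were tested as log2(RPKM + 1) with limma 3.58.1 (empirical Bayes with trend) in R 4.3.3, with the experiment as a block, a minimum mean of 1 RPKM and Benjamini-Hochberg adjustment over all genes tested. The labels' replicate numbers name the experiments, and the numbers pair the libraries: over genes, the difference between experiments at a dose correlated with that at each other shared dose (mean r 0.354, 0.178 to 0.466 over 21 pairs). Sigmoidal fits (level 1 at no dose, free plateau, least squares) and exact permutation tests used Python 3.11.15 with scipy 1.17.1. The scripts were tested on simulated data. The alternatives were pseudocounts of 0.1 and 5, no filter or a minimum of 5 RPKM, median centring, quantile normalization, no block, limma-voom on the recovered reads, other low groups and leaving out each library. The genes named are the 9 members, those of the fixed lists past the threshold (at most 4 a list, by size of change), the 5 nearest to each member, and FUS1 and the mating type markers. CLB2, CLB3 and CLB4 were added after their values were seen. The members and lists were chosen with earlier results of these data known. Which libraries were prepared together is not given in the sources used here. Whether reads were counted by strand is not given either, and no member overlaps another annotated gene. A fixed list of late mitotic genes is not reported here.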

Additional observations from a re-analysis of the deposited data

Results flagged for a closer look

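Dixon's test, of the gap to the next library over the range, was applied to 18 groups of libraries. These were the 4 at 0.25 nM and under and the 7 at 20 nM and above, for each of the 9 genes. In 6 groups a library stood far from the others. The test assumes libraries that are alike, while these groups mix doses and experiments and the genes share libraries. The number that chance would give is therefore not known. The 20 nM library of experiment 1 stood above the other 6 high-dose libraries for CLN1 (13.4 RPKM against 4.64 to 7.69), CLN2 (53.9 against 17.1 to 31.1), PCL1 (12.6 against 0.483 to 3.48) and CLB6 (2.98 against 0.0743 to 0.907). The mock-treated library of experiment 1 stood above the other 3 low-dose libraries for CLN3 (25.0 RPKM against 10.2 to 12.3), which are all from experiment 2. The mock-treated library of experiment 2 stood under the other 3 for PCL1 (52.6 RPKM against 58.2 to 59.3).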

How the results depend on the processing

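No change of a member between low and high doses reversed under the 24 alternatives tried (23 for CLB6, which a minimum of 5 RPKM leaves out). In the comparison of high with low doses, 264 genes were called lower and 137 higher, and limma-voom on the recovered reads called 284 and 124. With a pseudocount of 5, 152 were called lower, and experiment 1 alone, with 1 low-dose library, gave 50 lower, 51 higher and 1 member lower, CLB5. Leaving out each library gave 237 to 300 genes lower, 112 to 158 higher, 5 to 6 members lower and 1 member higher. Without the experiment as a block 2 members were higher, CLN3 and PCL2, none was higher at 5 nM, and over the steps from 1 to 5, 10 to 20, 20 to 50 and 50 to 500 nM 0, 0, 1 and 0 members passed. The fall of SIC1 at 5 nM did not pass without the block (adjusted p = 0.146), while that of PCL9 did (adjusted p = 0.0460). Without a filter on low values no member was higher at 5 nM. Quantile normalization made 2 members higher at 500 nM and left 0 past the step from 50 to 500 nM.

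Leaving out each library gave 0 to 1 members higher at 5 nM and 1 to 2 at 500 nM. Over the steps from 0 to 1, 1 to 5, 5 to 10, 10 to 20, 20 to 50 and 50 to 500 nM it left 0 to 1, 0 to 3, 0 to 1, 0 to 6, 1 to 4 and 0 to 1 members past the threshold, and 0 to 34 pairs of members. The midpoint on the log2 scale was 13.9 nM for CLN1, 20.2 nM for CLN2, 16.2 nM for PCL1, 11.6 nM for CLB5 and 15.6 nM for CLB6. With the plateau held at 0 it was 35.3 nM for CLN2 and 21.2 nM for CLB5. Interpolation gave 18.6 nM for CLN2, the fit without the 20 nM library of experiment 1 gave 15.1 nM, and single experiments gave 9.66 nM for CLB5 and 10.7 nM for CLB6. Median centring moved the median change of all genes from -0.10 to -0.01, and every member kept its direction. The cause of these shifts was not tested. With 1 library per dose and experiment, and 7 reads of CLB6 in all at 50 nM and above, depth limits the levels of CLB6 and PCL1 at high doses.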
